A study of Mus musculus with 18 samples.

Results

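The 37 genes described here encode the actomyosin machinery of the tendon fibroblast (TF), the proteins that tie it to adhesions, and the transcription factors SRF, YAP1 and TEAD1 with 4 of their target genes. They were taken by gene symbol from a table of 55487 mouse genes, and all 37 were found and passed the filter on low counts. Grouped by role, they comprised 4 actins, 7 regulators of the thin filament, 5 genes for myosin II and its kinase, 4 tropomyosins, 10 crosslinkers and adhesion proteins, 3 factors and 4 targets. The genes were chosen with results of these data known. *Myh9*, *Myh10* and *Fmnl1* had been named from these same libraries before, so their direction is not independent evidence.

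Poly-A RNA was sequenced from mouse tail TFs after 4 days of culture, with 3 libraries in each of 6 groups. Ctrl TFs were Cre-negative cells. The labels call them wild-type, whereas the methods describe Cre-negative Ctrl mice as *Hif1a* fl/fl. The cKO TFs came from *Hif1a* fl/fl; ScxCre mice, in which a constitutive Cre driven in *Scx*-expressing tendon cells deletes *Hif1a*, the gene for the oxygen-sensitive transcription factor HIF-1α. The remaining arm, Ctrl+gesicles, was Ctrl TFs given Cre gesicles, vesicles that carry the recombinase into cells. Each arm was kept in 20% O2 (normoxia) or 1% O2 (hypoxia). All cells came from male and female mice of a mixed C57BL6J/129S1 background aged 4 to 6 months, and were isolated through a collagen gel and grown on plastic coated with collagen I. The labels give 10% fetal bovine serum in the medium and the methods 1%, and since SRF takes its name from its response to serum, which of these applied limits how the levels of its targets can be read. Because the cKO carried Cre and the Ctrl did not, loss of *Hif1a* and presence of ScxCre cannot be told apart in cKO against Ctrl. ScxCre is constitutive and not restricted to tendon cells. No label ties a library to a named mouse, so p-values measure the spread between these samples only.

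Non-muscle cells pull on their matrix by sliding bipolar myosin II filaments along actin bundles. Tropomyosins, calponins, caldesmon and transgelins line or bundle those filaments, α-actinin and filamin crosslink them, and talin, vinculin, paxillin and zyxin couple them to integrins at focal adhesions. Serum response factor (SRF) reads the pool of unpolymerized actin through its coactivators, the MRTFs, and switches on actin and contractile genes from a DNA element called the CArG box. YAP1, which enters the nucleus on stiff substrates and is held back by the Hippo kinases, has no DNA-binding domain of its own and acts through TEAD factors bound to M-CAT elements. In tendon these systems belong to the sensing of load, and smooth muscle-type genes such as *Acta2* and *Tagln* mark the myofibroblast state that TFs take on in culture.

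Both elements can be read in the promoters of these genes. In the 250 bases before the start, from RefSeq sequences on GRCm38.p6, 32 of the 37 genes had an entry, and *Actg2*, *Actb*, *Tagln*, *Pxn* and *Tead1* had none. A CArG box stood in the windows of 7 of the 32 (21.9%), against 439 of all 27025 genes with an entry (1.62%). The M-CAT element, CATTCC or its reverse complement GGAATG, stood in 16 of the 32 against 14.4% of all genes. Both strands were searched, and in *Vcl*, the single gene of the set with both elements, they shared no base. The set was picked as contractile genes and SRF/YAP targets, so a share above that of all genes was partly built into the choice. A match describes letters in a window and not occupancy. The CArG boxes are shown for members of the actin, calponin, myosin light chain and adhesion groups and for *Srf* itself, with the box in capitals:
Actg1, chr11:120348566-120348595, minus strand: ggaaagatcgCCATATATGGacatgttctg
Cnn2, chr10:79988534-79988563, plus strand: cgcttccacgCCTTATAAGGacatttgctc
Myl9, chr2:156775293-156775322, plus strand: caagcagaggCCTAATAAGGccgggctggc
Vcl, chr14:20929161-20929190, plus strand: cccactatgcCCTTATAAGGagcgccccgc
Srf, chr17:46556205-46556234, minus strand: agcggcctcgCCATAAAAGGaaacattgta
Srf, second box, chr17:46556225-46556254, minus strand: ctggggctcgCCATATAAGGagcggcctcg

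The M-CAT windows of 5 genes that hold the element are shown, with the element in capitals. *Lmod1*, *Flna* and *Tpm1* were called in at least 1 comparison, *Acta2* is the most familiar contractile gene of the set, and *Ankrd1* is a YAP target with 2 elements:
Lmod1, chr1:135324671-135324700, plus strand: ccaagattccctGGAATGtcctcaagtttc
Flna, chrX:74246663-74246692, minus strand: ggcgttgtggggCATTCCaacgggaggggc
Tpm1, chr9:67049252-67049281, minus strand: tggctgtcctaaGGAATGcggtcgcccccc
Acta2, chr19:34255502-34255531, minus strand: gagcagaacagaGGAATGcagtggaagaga
Ankrd1, chr19:36119950-36119979, minus strand: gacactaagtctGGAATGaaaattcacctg

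*Lmod1*, *Flna*, *Tpm1* and *Acta2* held no CArG box in this window, which says nothing of SRF at other sites. *Fmnl1*, *Actn1*, *Tln1*, *Myh9*, *Zyx* and *Cnn1*, which figure in the results below, held neither element.

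Library totals ran from 6857558 to 51806453 counts, and the first cKO library in 1% O2 was the smallest. Values are CPM, counts scaled to one common library size with TMM, a correction for library composition, and the limit set by 3 counts ran from 0.0579 to 0.437 CPM. *Hif1a* itself stood at 335 to 371 CPM in Ctrl and 294 to 431 CPM in cKO TFs in 20% O2, and its whole-gene count did not separate the genotypes (log2 fold change 0.09 ± 0.11, edgeR adjusted p = 0.605, mean of both O2 levels), which does not test the floxed exon. All 9 tendon fibroblast markers reached 1 CPM in every group, whereas skeletal muscle was represented by *Acta1* alone of 8 markers and no keratinocyte marker reached 1 CPM. A gene was called when its adjusted p in edgeR's quasi-likelihood test was under 0.05 and its fold change at least 1.5. Values given as ± after a log2 fold change are standard errors.

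Divided by the merged length of all annotated exons of each gene, the levels were led by the actins. That length can exceed the length of any single transcript, so the order between genes is approximate. In Ctrl TFs in 20% O2, *Actg1* (cytoplasmic γ-actin) stood at 838 ± 55.1 CPM per kb and *Acta2* (smooth muscle α-actin) at 822 ± 182 CPM per kb (mean ± SD, n = 3). These overlapped. *Tpm4* followed at 670 ± 30.9 CPM per kb and *Actb* (β-actin) at 483 ± 43.9 CPM per kb. The next tier lay between 228 and 141 CPM per kb and ran from *Myl9*, *Cnn2*, *Cnn3*, *Tagln*, *Tpm1* and *Zyx* through *Myl6*, *Actn4* and *Cald1* to *Flna*, and neighbours in that order differed by less than the larger of their SDs, except *Cnn2* from *Cnn3* and *Zyx* from *Myl6*. The lowest 4 per kb were *Myh10* at 4.16 ± 0.734, *Mylk* at 1.97 ± 0.450, *Tead1* at 1.83 ± 0.263 and *Fmnl1* at 0.149 ± 0.0777. Non-muscle myosin IIA (*Myh9*, 26.9 ± 4.36 CPM per kb) exceeded IIB (*Myh10*). *Srf* and *Yap1* were close to each other at 7.14 ± 0.861 and 6.35 ± 0.684 CPM per kb. Actins and tropomyosins resemble each other in sequence, so the division of reads among paralogs rests on the estimate made by RSEM.

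**Figure D1:**
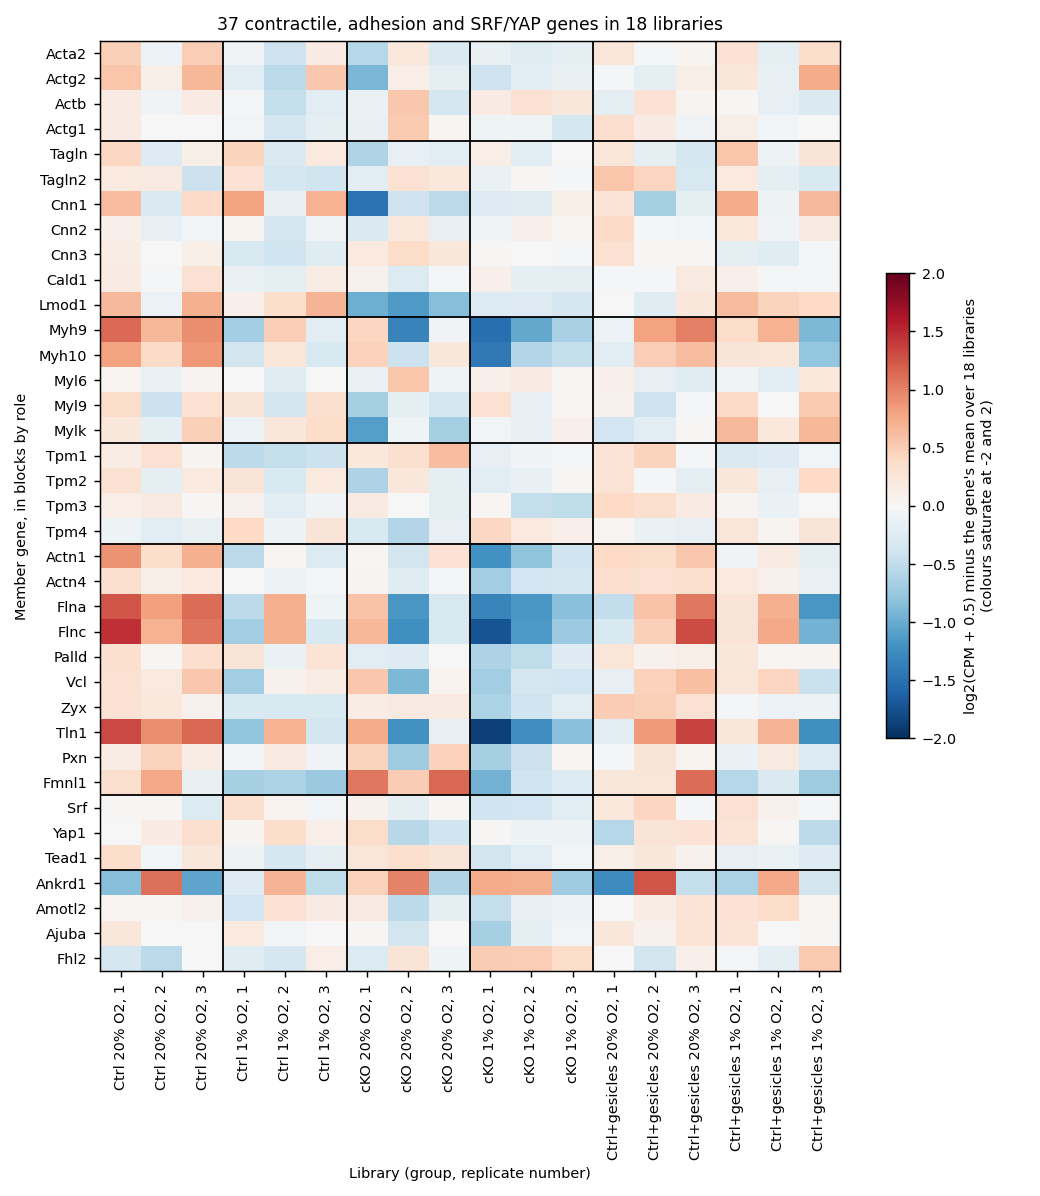
Level of each of the 37 genes in each of the 18 libraries, as log2(CPM + 0.5) minus that gene's mean over the libraries (colour, saturating at -2 and 2), with genes in blocks by role and libraries by group. *Flna*, *Flnc*, *Tln1*, *Myh9* and *Ankrd1* vary widely between libraries of one group, and *Fmnl1* is below its mean in every 1% O2 library.

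The members differed in how steady they were between libraries of one group. Over all 18 libraries, *Tln1* (talin 1, which links integrins to actin) varied 9.51-fold, *Flnc* 9.22-fold, *Myh9* 6.31-fold and *Flna* 5.99-fold, against 1.67-fold for *Tead1* and less for *Cald1*. These 4 genes are long and fairly rich in GC, by the merged length of their annotated exons and the GC content of their longest transcript. *Tln1* had 9.80 kb and 57.0% GC, *Flnc* 9.40 kb and 58.4%, and *Myh9* 12.9 kb and 57.0%. *Flna* had 9.40 kb and 54.0%, which is below the 55% GC minimum of the index described below. *Tead1* (13.6 kb, 46.5% GC) and *Cald1* (45.0% GC) are as long but poorer in GC. Length and GC did not sort all members, since *Pxn*, *Actn4* and *Amotl2*, of 6.13 to 8.20 kb and 55.4% to 57.7% GC, varied 2.28-, 2.05- and 1.86-fold and *Myh10*, at 51.5% GC, varied 5.12-fold. An index was formed from 354 other genes with at least 6 kb of exons and at least 55% GC, as the median over genes of the log2 deviation from each gene's own mean. It was lowest in the first cKO library in 1% O2 (-0.76), followed by the second cKO library in 20% O2 (-0.51), the second cKO library in 1% O2 (-0.45) and the third Ctrl+gesicles library in 1% O2 (-0.29). In Ctrl TFs in 20% O2 it lay between 0.22 and 0.34. *Myh9*, *Flna*, *Flnc* and *Tln1* ordered the 3 libraries as the index did in 6 of 6 groups, *Amotl2* in 5 and *Myh10* and *Actn1* in 4. The index was added after these values were seen, and its part in the differences reported below was not tested beyond a fit with offsets for GC content and exon length, given below where it changed a call or a value.

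**Figure D2:**
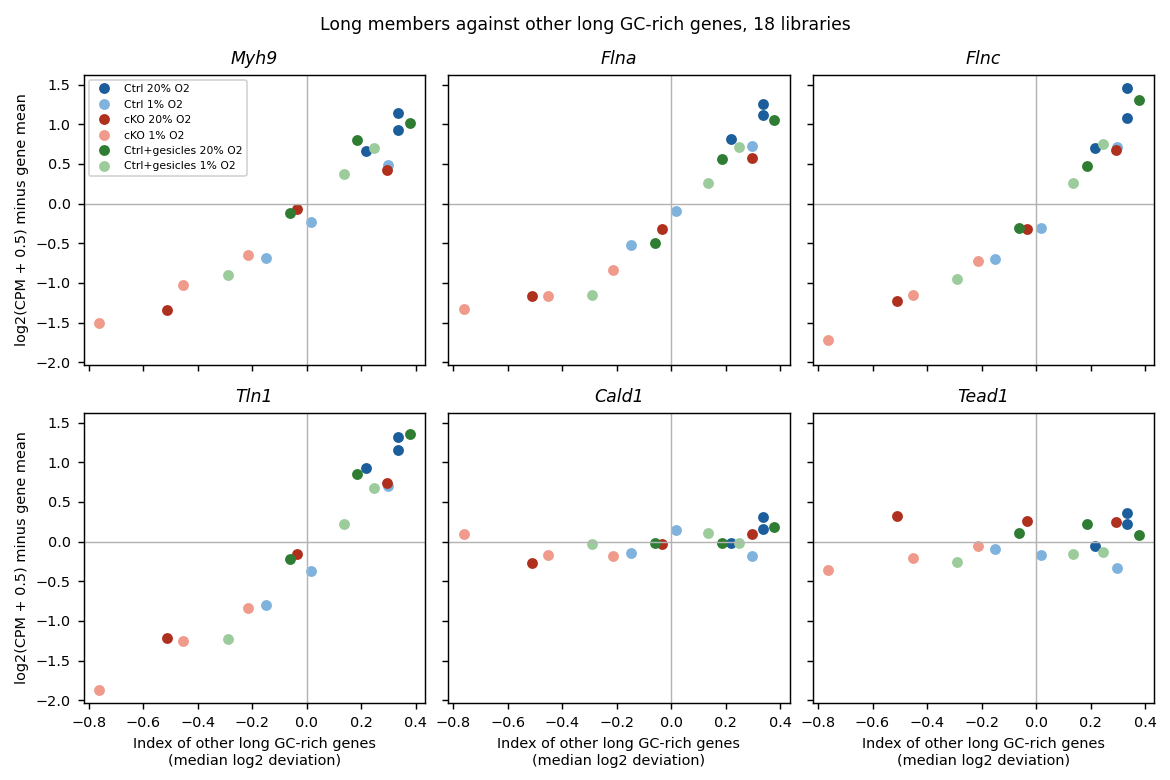
Level of *Myh9*, *Flna*, *Flnc*, *Tln1*, *Cald1* and *Tead1* in each of the 18 libraries, as log2(CPM + 0.5) minus the gene's mean, against the index of 354 other long GC-rich genes (median log2 deviation), coloured by group. The first 4 genes rise along the index and are lowest in the first cKO library in 1% O2, at an index of -0.76, whereas *Cald1* and *Tead1*, which are long but poorer in GC, stay near 0.

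The first comparison asks what hypoxia does to the set. Averaged over the 3 arms, 6 of the 37 genes were called in 1% against 20% O2, all 6 lower. Of all 16174 genes tested 10.5% were called, and 5.13% were called lower. These were the formin *Fmnl1*, the crosslinkers and adhesion genes *Actn1*, *Tln1* and *Flnc*, and both myosin II heavy chains. The median log2 change of the set was -0.12, with 27 genes below 0, and that of all genes was -0.02. With the fold minimum dropped, 15 of the 37 passed (24.6% of all genes did), of which *Tpm4*, *Mylk* and *Lmod1* were higher and the other 12 lower. The fit took all libraries as separate samples, although same-numbered Ctrl and Ctrl+gesicles libraries varied together, less clearly in 1% than in 20% O2. If the numbers mark mice, some mice count more than once in these p-values, and the block within arms used below does not join them.

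*Fmnl1*, a formin that elongates actin filaments and is best known from white blood cells, was scarce but showed the largest fold of the set. Its counts were 26, 38 and 12 in Ctrl in 20% O2 and 4, 4 and 3 in 1% O2. In cKO they were 42, 34 and 72 against 0, 8 and 12, and in Ctrl+gesicles 27, 28 and 80 against 5, 9 and 3. In CPM the 20% and 1% O2 libraries did not overlap within any arm. The log2 fold change averaged over the arms was -2.59 ± 0.35 (edgeR adjusted p = 0.00010), and it was called in each arm alone, at -2.79 ± 0.61 in Ctrl (adjusted p = 0.038), -2.55 ± 0.59 in cKO (adjusted p = 0.045) and -2.42 ± 0.59 in Ctrl+gesicles (adjusted p = 0.039). Its level in 20% O2 was at most 1.63 CPM, and an opposite-strand gene, *Gm20511*, overlaps 120 bases of its exons. In these bulk samples, fewer cells of a type and less RNA per cell cannot be told apart. Of 5 immune markers, 3 reached 1 CPM in 20% O2 and 2 in 1% O2, with summed levels of 10.6 to 25.4 CPM and 12.3 to 23.2 CPM. Most of each sum was *Lyz2*, at 8.57 to 22.2 CPM. The 3 immune markers tested had a median log2 change of -0.43 over the arms, with 2 below 0 and 1 above. Of these, 0 were called (10.5% of all genes), and the part of immune cells in the *Fmnl1* result was not tested.

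*Actn1* (α-actinin 1, the main stress fibre crosslinker) fell by 0.72 ± 0.12 on the log2 scale (adjusted p = 0.00071). It stood at 315, 215 and 275 CPM in Ctrl in 20% O2 and at 117, 173 and 139 CPM in 1% O2. In cKO it was 173, 130 and 205 CPM against 72.6, 96.3 and 128 CPM, and in Ctrl+gesicles 223, 218 and 245 CPM against 160, 191 and 147 CPM. The O2 groups did not overlap in any arm. With the offsets for GC and length the change was -0.62 (adjusted p = 0.00014). By contrast its paralog *Actn4* changed by -0.31 ± 0.07 (adjusted p = 0.0044), which is below 1.5-fold.

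The myosin II heavy chains were lower in hypoxia on average, with wide scatter. *Myh9* stood at 404, 292 and 348 CPM in Ctrl in 20% O2 and at 114, 258 and 156 CPM in 1% O2. In cKO it was 247, 72.2 and 175 CPM against 64.0, 89.8 and 117 CPM, and in Ctrl+gesicles 168, 320 and 371 CPM against 237, 298 and 97.9 CPM. The groups were apart in Ctrl and overlapped in the other arms. *Myh10* stood at 46.9, 34.7 and 48.8 CPM against 20.4, 31.6 and 21.4 CPM in Ctrl. In cKO *Myh10* was 36.5, 19.5 and 31.0 CPM against 9.53, 17.4 and 18.8 CPM, and in Ctrl+gesicles 22.9, 37.3 and 41.1 CPM against 31.9, 31.4 and 15.3 CPM. Its groups were apart in Ctrl and cKO and overlapped in Ctrl+gesicles. The average change was -0.76 ± 0.26 for *Myh9* (adjusted p = 0.043) and -0.70 ± 0.19 for *Myh10* (adjusted p = 0.014), and with the offsets both passed the adjusted p but not the fold, at -0.50 and -0.46. The light chains moved less. *Myl6* changed by -0.01 ± 0.10 and *Myl9* by 0.29 ± 0.13, neither past the threshold.

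*Tln1* changed by -1.04 ± 0.31 (adjusted p = 0.023) and *Flnc* (filamin C, a muscle-type crosslinker) by -0.86 ± 0.30 (adjusted p = 0.049). Both follow the long GC-rich index described above, and with the offsets they were still called, at -0.82 and -0.64. In that fit 5 members were called (10.4% of all genes), *Actn1*, *Fmnl1*, *Tln1* and *Flnc* lower and *Mylk*, the kinase of the myosin light chain, higher at 0.64. *Flna* fell short (-0.76 ± 0.28, adjusted p = 0.058). With libraries of one number within an arm as a block, 3 of the 6 genes were called (10.4% of all genes), namely *Actn1*, *Fmnl1* and *Myh10*. The adjusted p of *Tln1*, *Myh9* and *Flnc* was then 0.065, 0.091 and 0.13. Without single libraries the count of called genes ran from 3 to 7, with 3 when either the first cKO library or the third Ctrl+gesicles library in 20% O2 was left out, and *Actn1*, *Fmnl1* and *Myh10* were called each time.

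The adhesion gene *Zyx* and the factor *Tead1* had a small spread and were lower by less than 1.5-fold in all 3 arms. *Zyx* (zyxin, which is recruited to strained stress fibres) stood at 1006, 951 and 871 CPM in Ctrl in 20% O2 and at 666, 667 and 664 CPM in 1% O2. In cKO it was 909, 928 and 926 CPM against 528, 624 and 705 CPM, and in Ctrl+gesicles 1164, 1137 and 1014 CPM against 795, 755 and 767 CPM. No 1% O2 library reached the lowest 20% O2 library of any arm. The average change was -0.53 ± 0.06 (adjusted p = 1.9e-05), and -0.43 with the offsets. *Tead1* changed by -0.40 ± 0.07 (adjusted p = 0.00091), but with the offsets by -0.14 (adjusted p = 0.45).

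The tropomyosins split. *Tpm1* stood at 1121, 1249 and 1053 CPM in Ctrl in 20% O2 and at 707, 728 and 750 CPM in 1% O2. In cKO *Tpm1* was 1172, 1263 and 1555 CPM against 903, 972 and 988 CPM, and in Ctrl+gesicles 1223, 1381 and 1002 CPM against 834, 848 and 983 CPM. *Tpm4* went the other way, at 1537, 1403 and 1492 CPM against 2172, 1541 and 1967 CPM in Ctrl. In cKO *Tpm4* was 1339, 1098 and 1466 CPM against 2188, 1885 and 1766 CPM, and in Ctrl+gesicles 1701, 1499 and 1472 CPM against 1962, 1712 and 1966 CPM. The O2 groups did not overlap in any arm for either gene. Averaged over the arms, *Tpm1* changed by -0.52 ± 0.08 (adjusted p = 0.00019) and *Tpm4* by 0.40 ± 0.08 (adjusted p = 0.0024), *Tpm3* by -0.27 ± 0.08 (adjusted p = 0.026) and *Tpm2* by 0.05 ± 0.12 (adjusted p = 0.81). With the offsets *Tpm1* and *Tpm4* kept their sign, at -0.36 and 0.36.

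**Figure D3:**
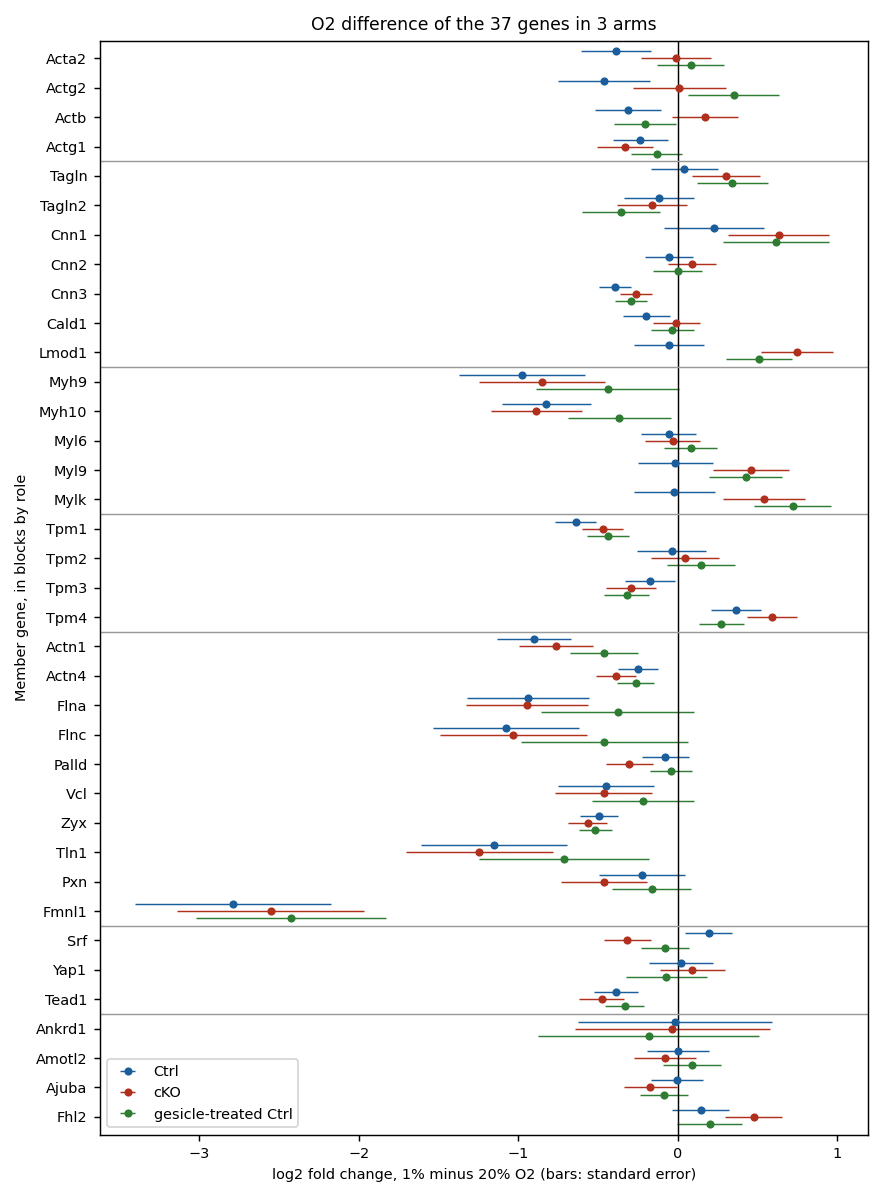
Log2 fold change of each member in 1% against 20% O2 in Ctrl, cKO and Ctrl+gesicles TFs, with bars for the standard error from the edgeR fit. *Fmnl1* lies between -2.79 and -2.42 and *Zyx* between -0.56 and -0.50 in the 3 arms, whereas *Tpm4* lies above 0 in each.

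Among the smooth muscle-type genes the main edgeR fit called none in hypoxia. In it *Lmod1* (0.40 ± 0.12, adjusted p = 0.026) and *Mylk* (0.41 ± 0.14, adjusted p = 0.041) passed the adjusted p as higher over the 3 arms. With the offsets *Mylk* was called higher, as given above. DESeq2 called *Lmod1* higher in cKO, and with the replicate block also *Cnn1* in cKO and in Ctrl+gesicles. *Acta2* stood at 2028, 1343 and 2042 CPM in Ctrl in 20% O2 and at 1394, 1089 and 1634 CPM in 1% O2. In cKO it was 983, 1678 and 1196 CPM against 1312, 1229 and 1268 CPM, and in Ctrl+gesicles 1719, 1428 and 1505 CPM against 1773, 1290 and 1858 CPM. The groups overlapped in each arm, and the average change was -0.11 ± 0.12 (adjusted p = 0.54). *Tagln* (transgelin) stood at 454, 284 and 368 CPM against 466, 278 and 390 CPM in Ctrl, at 225, 304 and 292 CPM against 374, 291 and 341 CPM in cKO, and at 403, 300.9 and 266 CPM against 502, 318 and 409 CPM in Ctrl+gesicles. Its groups overlapped as well, with an average change of 0.22 ± 0.13 (adjusted p = 0.22). *Actb* changed by -0.12 ± 0.11 and *Amotl2* by -0.00 ± 0.10.

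Taken within arms, 2 of the 37 genes were called in Ctrl (*Tpm1* and *Fmnl1*, both lower, where 1.88% of all genes were called and 0.41% called lower) and *Fmnl1* alone in cKO (2.1% of all genes) and in Ctrl+gesicles (2.41% of all genes). *Tpm1* in Ctrl changed by -0.64 ± 0.13 (adjusted p = 0.024), and *Zyx* missed the threshold there (-0.50 ± 0.12, adjusted p = 0.057). With the offsets *Tpm1* lost its call (-0.51, adjusted p = 0.092) and *Actn1* gained one, so that *Actn1* and *Fmnl1* were called (2.83% of all genes). Same-numbered Ctrl libraries of the 2 O2 levels varied together, and with the number as a block *Tpm1* stayed called (-0.64, adjusted p = 0.034) whereas *Fmnl1* did not (-2.70, adjusted p = 0.058), with 2.32% of all genes called. Each of the 6 single omissions took *Tpm1* past 0.05, to adjusted p between 0.056 and 0.11, and all but that of the third Ctrl library in 20% O2 took *Fmnl1*, to between 0.083 and 0.15. In cKO, *Zyx* passed the adjusted p but not the fold (-0.56 ± 0.12, adjusted p = 0.033), and *Tpm4* stood at 0.59 ± 0.16 (adjusted p = 0.072). In Ctrl+gesicles the values were -0.52 ± 0.10 for *Zyx* (adjusted p = 0.014) and -0.44 ± 0.13 for *Tpm1* (adjusted p = 0.087). The *Fmnl1* call was lost in 5 of 6 single omissions in cKO, all but that of the second library in 20% O2, and in 5 of 6 in Ctrl+gesicles, all but that of the first library in 20% O2. Without the second cKO library in 20% O2, 9 members were called in cKO in place of 1, and 8.8% of all genes in place of 2.1%.

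The second comparison asks how the set differs without *Hif1a*. In 20% O2, 1 of the 37 genes was called in cKO against Ctrl TFs (0.347% of all 15850 genes), and it was *Lmod1*, which encodes leiomodin 1, a smooth muscle protein that nucleates actin filaments. *Lmod1* stood at 21.0, 12.2 and 22.1 CPM in Ctrl and at 6.53, 5.81 and 7.12 CPM in cKO. The highest cKO library lay below the lowest Ctrl library. The log2 fold change was -1.51 ± 0.23 (adjusted p = 0.023), a 2.85-fold lower level, and with the offsets it was still called at -1.49. Left-out libraries moved its adjusted p to 0.15 and 0.11 without the first and the third Ctrl library and to 0.060 and 0.11 without the second and the third cKO library, with log2 fold changes of -1.36 to -1.74. In the Ctrl+gesicles arm it was 13.2, 11.1 and 15.6 CPM in 20% O2, above the cKO libraries of that O2 level.

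*Cnn1* (calponin 1, an inhibitor of actomyosin that marks smooth muscle) came next, at 181, 96.2 and 153 CPM in Ctrl and 41.8, 88.3 and 80.7 CPM in cKO. The groups did not overlap, and the difference of -1.03 ± 0.32 missed the threshold (adjusted p = 0.20). *Flna* stood at 1504, 1111 and 1366 CPM against 935, 281 and 503 CPM, a difference of -1.22 ± 0.38 (adjusted p = 0.21). *Acta2* (-0.49 ± 0.22) and *Tagln* (-0.43 ± 0.21) overlapped between the genotypes, with adjusted p of 0.34 and 0.37. Of the 37 differences, 27 were below 0 with a median of -0.22, against 0.03 for all genes.

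In 1% O2, edgeR called 0 of the 37 genes (0.0379% of all genes), with 14 at an unadjusted p under 0.05 (16.8% of all genes), and DESeq2 called 1, *Palld* (1.01% of all genes). *Palld* (palladin, a stress fibre scaffold) stood at 279, 213 and 283 CPM in Ctrl and 151, 164 and 194 CPM in cKO. Its difference was -0.61 ± 0.15 (edgeR adjusted p = 0.18). *Actn4* differed by -0.42 ± 0.13 and *Fhl2*, a LIM-domain cofactor and SRF target, by 0.58 ± 0.18 (adjusted p = 0.21 for both). *Fhl2* was 227, 212 and 295 CPM in Ctrl and 382, 376 and 346 CPM in cKO. With the offsets *Palld* moved to -0.22 and *Actn4* to -0.09, while *Fhl2* stayed at 0.55. *Lmod1* in 1% O2 was 14.3, 17.0 and 21.6 CPM in Ctrl against 11.0, 11.1 and 10.5 CPM in cKO, again without overlap (-0.71 ± 0.23, adjusted p = 0.21), and *Cnn1* was 205, 106 and 190 CPM against 98.2, 99.4 and 128 CPM, with overlap. In Ctrl+gesicles *Cnn1* was 143, 74.0 and 103 CPM in 20% O2 and 197, 110 and 184 CPM in 1% O2.

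With both O2 levels averaged, 2 of the 37 genes were called, *Lmod1* and *Flna*, both lower in cKO. Of all genes 3.78% were called and 2.68% called lower. *Lmod1* differed by -1.11 ± 0.16 (adjusted p = 0.0052) and *Flna* by -1.22 ± 0.27 (adjusted p = 0.031). *Palld* (-0.49 ± 0.10, adjusted p = 0.028) and *Actn4* (-0.35 ± 0.09, adjusted p = 0.045) passed the adjusted p without the fold, which 5.19% of all genes did when the fold minimum was dropped. A further 5 genes lay just past 0.05, with adjusted p of 0.054 or 0.055, among them *Cnn1* at -0.83 ± 0.22, *Myh9* at -1.03 ± 0.28 and *Tln1* at -1.20 ± 0.33. By role, 9 of 10 crosslinkers and adhesion genes and 4 of 5 myosin genes were below 0, with medians of -0.43 and -0.49. The 4 actins divided equally about 0 and the 4 targets likewise. Sex was unbalanced between the genotypes. By *Xist* and *Ddx3y*, library 1 was male and libraries 2 and 3 female in Ctrl, and the reverse held in cKO. *Flna* lies on the X chromosome, and the part of sex in these differences was not tested.

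The scaling moved this comparison. With offsets for GC and length the median of the set went from -0.26 to -0.05 and the genes below 0 from 26 to 21 (from 26 to 19 in 1% O2 alone), while the median of all genes moved from 0.02 to 0.05. *Lmod1* and *Cnn1*, whose transcripts are not long, stayed at -1.03 and -0.87, and *Cnn1* was then called (adjusted p = 0.035). *Flna* and *Tln1* were called at -0.87 and -0.81, which made 4 members (3.27% of all genes), and *Myh9* was at -0.59 (adjusted p = 0.054). *Actn4* and *Palld* shrank to -0.08 and -0.13, and *Cald1*, *Pxn*, *Zyx* and *Amotl2* were among the genes that changed sign. The 20% and 1% O2 libraries of a genotype were taken as separate samples here. In an alternative chosen after the data were seen, which summed the libraries of one number so that cultures of one mouse, if the numbers mark mice, count once, edgeR called 0 of the 37 genes with 14 at an unadjusted p under 0.05, and DESeq2 was not run. There *Lmod1* stood at -1.16 (edgeR adjusted p = 0.078), and *Flna* had an adjusted p of 0.29.

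**Figure D4:**
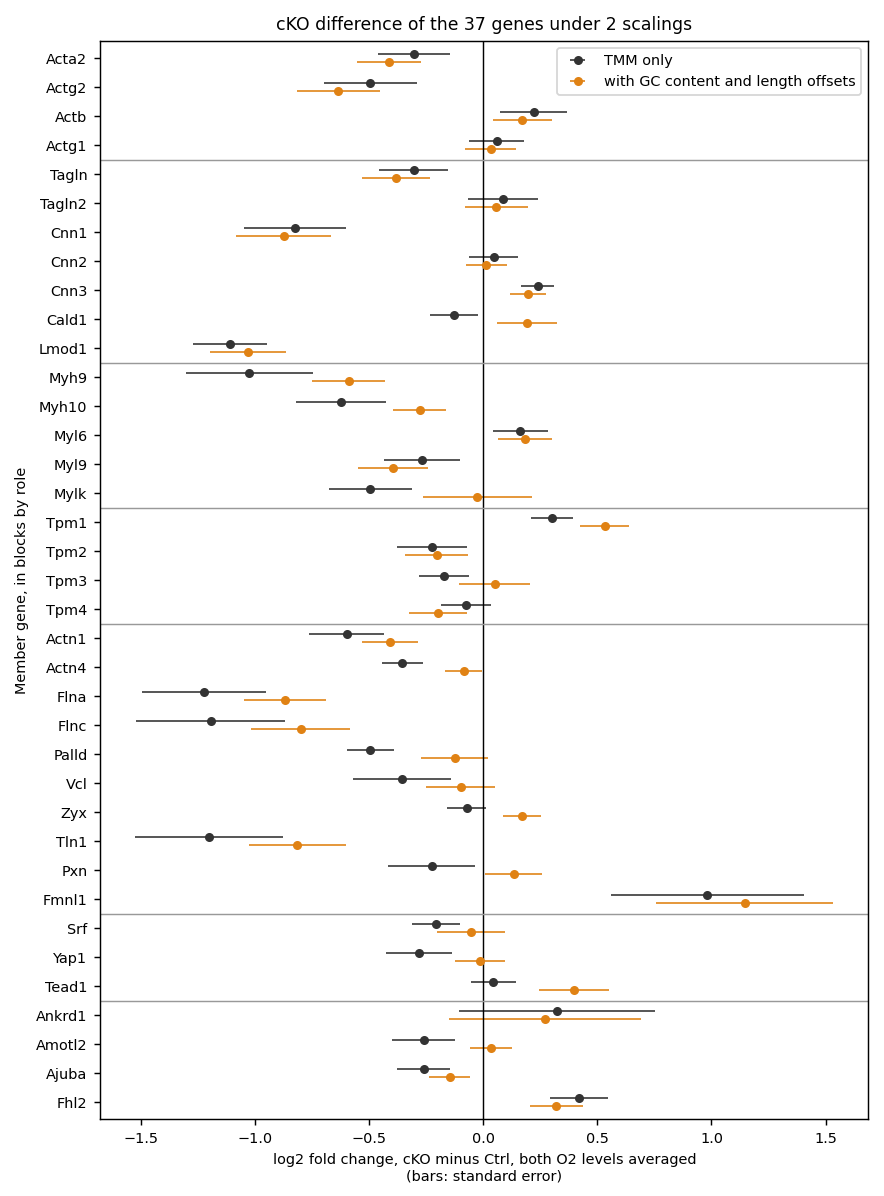
Log2 difference of each member between cKO and Ctrl TFs, both O2 levels averaged, with TMM scaling and with offsets for GC content and exon length, with bars for the standard error. *Lmod1* goes from -1.11 to -1.03 and *Cnn1* from -0.83 to -0.87, whereas *Palld* goes from -0.49 to -0.13 and *Actn4* from -0.35 to -0.08.

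Single libraries also weighed on the averaged count. It was 8 without the first cKO library in 20% O2 (9.74% of all genes called), 6 without the first Ctrl library in 1% O2 (4.79%) and 3 without the second Ctrl or second cKO library in 20% O2 or the third cKO library in 1% O2 (2.25% to 2.5%). It was 1, *Lmod1*, without any other of the 12 libraries (0.915% to 1.55%). *Lmod1* was called in all 12.

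The summed level of smooth muscle and pericyte markers was lower in cKO, as *Lmod1* and *Cnn1* were, though not every marker was. The sum of the 8 markers was 103 to 180 CPM in Ctrl in 20% O2 (median 156 CPM) and 41.6 to 61.2 CPM in cKO (median 56.8 CPM). In 1% O2 it was 54.9 to 101 CPM in Ctrl and 36.3 to 56.7 CPM in cKO. In Ctrl+gesicles it was 66.1 to 141 CPM in 20% O2 and 63.0 to 95.6 CPM in 1% O2. None of the 8 stood at 0 throughout a group, and 6 or 7 reached 1 CPM. In cKO against Ctrl, both O2 levels averaged, 6 of the 8 were below 0 and 2 above, *Kcnj8* at 0.87 and *Abcc9* at 0.18 (adjusted p = 0.44 and 0.89). Called were 3 lower and 0 higher, where 3.78% of all genes were called, namely *Myh11* (smooth muscle myosin, -1.39, adjusted p = 0.011), *Rgs5* (a pericyte regulator of G-protein signalling, -0.77, adjusted p = 0.013) and *Cspg4* (the NG2 proteoglycan, -1.46, adjusted p = 0.030). With the offsets all 3 were still called. Their part in the *Lmod1* and *Cnn1* results was not tested.

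**Figure D5:**
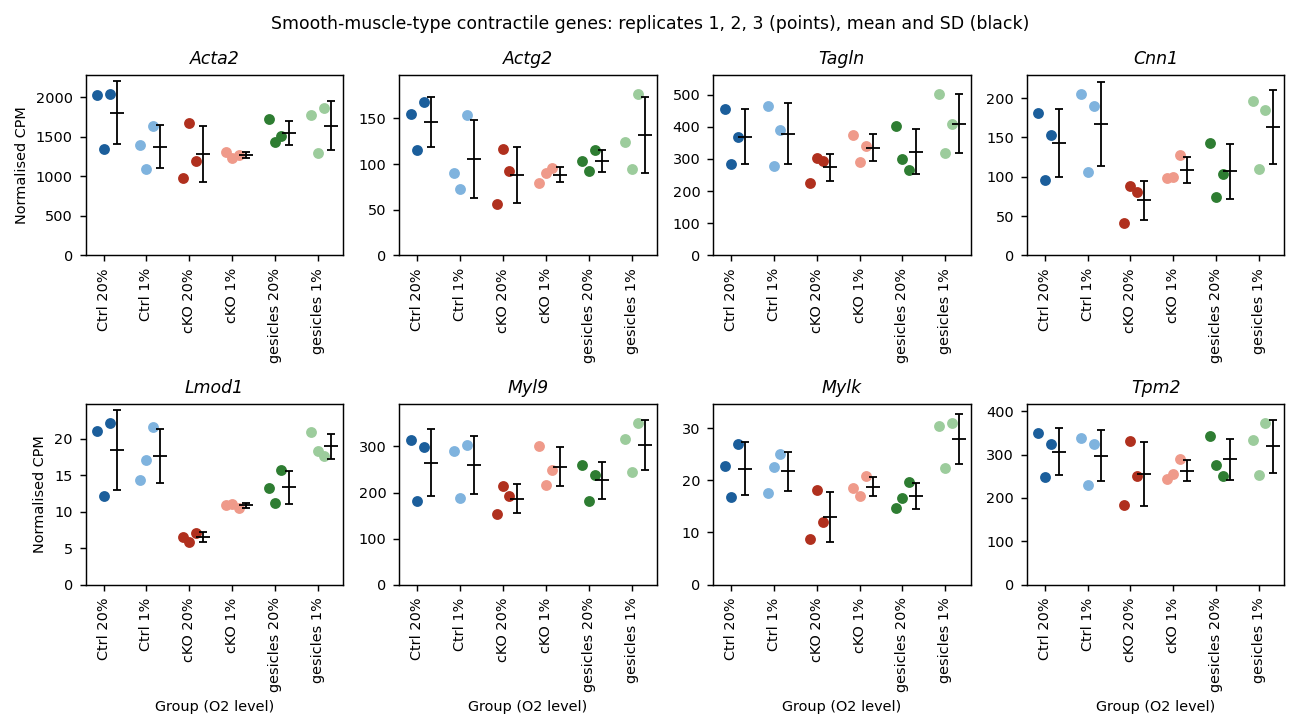
CPM of *Acta2*, *Actg2*, *Tagln*, *Cnn1*, *Lmod1*, *Myl9*, *Mylk* and *Tpm2* in each library by group and O2 level, with points for the 3 libraries and black marks for the mean and SD. In 20% O2 the cKO libraries lie below the Ctrl libraries for *Cnn1* and *Lmod1* and overlap them for *Acta2* and *Tagln*.

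No member responded to O2 differently in cKO and Ctrl TFs by the test of the interaction. EdgeR called 0 of 37 genes (0.0% of all genes), with 2 at an unadjusted p under 0.05 (2.32% of all genes), and DESeq2 called 0 (0.00701% of all genes). *Lmod1* had the smallest p, at 0.80 ± 0.32, from an O2 difference of 0.75 ± 0.23 in cKO (adjusted p = 0.11) and -0.05 ± 0.22 in Ctrl. *Srf* stood at -0.51 ± 0.21 and *Actb* at 0.48 ± 0.29, and all adjusted p were 1.00. *Actb* was 1364, 1159 and 1361 CPM against 1193, 875 and 1049 CPM in Ctrl, and 1106, 1777 and 952 CPM against 1371, 1507 and 1422 CPM in cKO. In Ctrl+gesicles it was 1079, 1492 and 1263 CPM against 1237, 1086 and 999 CPM.

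The third comparison, gesicle-treated against untreated Ctrl TFs, asks what Cre delivered in vesicles does to Ctrl TFs. If these cells carry floxed *Hif1a*, as the methods have it, the delivered Cre could also delete *Hif1a*, and both effects cannot be told apart here. EdgeR called 0 of 37 genes in 20% O2 (0.0247% of all genes), in 1% O2 (0.0%) and in their average (0.0495%), with 2, 1 and 1 genes at an unadjusted p under 0.05 (3.67%, 2.0% and 3.62% of all genes), and DESeq2 called 0 in each (0.155%, 0.0% and 0.256% of all genes). These comparisons share their Ctrl libraries with those of the cKO. The gene with the smallest p in the average was *Zyx*, higher by 0.22 ± 0.07 (adjusted p = 0.75), followed by *Tpm1* at 0.18 ± 0.09 and *Cnn2* at 0.18 ± 0.11. In 20% O2 *Lmod1* was lower by 0.47 ± 0.21 on the log2 scale and *Srf* higher by 0.28 ± 0.15, and in 1% O2 *Tpm1* was higher by 0.29 ± 0.13 and *Cnn3* by 0.15 ± 0.10 (adjusted p = 1.00 for each).

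Of the factors and targets none was called in any comparison by edgeR, though *Tead1* in hypoxia and *Fhl2* in cKO in 1% O2 differed as given above. *Srf* stood at 22.0, 22.1 and 17.8 CPM in Ctrl in 20% O2 and between 16.4 and 29.2 CPM over all libraries, and *Yap1* between 34.9 and 67.3 CPM. *Amotl2*, an angiomotin that feeds back on YAP, was 575, 572 and 595 CPM in Ctrl in 20% O2 and 429, 679 and 626 CPM in 1% O2. In cKO *Amotl2* was 630, 387 and 485 CPM in 20% O2 and 400, 497 and 513 CPM in 1% O2, and in Ctrl+gesicles 561, 616 and 676 CPM and 680, 718 and 572 CPM. The groups compared overlapped. *Ajuba*, a LIM protein that restrains the Hippo kinases, ranged from 48.8 to 93.7 CPM.

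*Ankrd1*, the ankyrin repeat protein used as a readout of YAP activity, varied 5.89-fold, mostly between libraries of one group. It stood at 15.2, 60.7 and 13.2 CPM in Ctrl in 20% O2 and 23.3, 45.2 and 19.5 CPM in 1% O2. In Ctrl+gesicles it was 11.4, 67.4 and 19.9 CPM in 20% O2 and 17.7, 47.8 and 21.6 CPM in 1% O2. The second library was the highest in 4 of these 4 groups, and the second library was also the lowest of its group for *Cnn1* and *Acta2* in 4 of 4. In cKO *Ankrd1* was 38.7, 55.8 and 18.2 CPM and 46.8, 46.7 and 16.8 CPM, with the third library the lowest at both O2 levels. The averaged cKO difference was 0.32 ± 0.43 and the averaged O2 difference -0.08 ± 0.40, both smaller than their standard errors. By *Xist* and *Ddx3y*, library 1 was male and libraries 2 and 3 female in all Ctrl and Ctrl+gesicles groups, and library 1 was female and libraries 2 and 3 male in cKO, so sex does not single out the second library.

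Genes of the same pathways outside the set were read from further lists. Of 24 other SRF and MRTF genes, 1 was called higher and 4 lower in cKO against Ctrl, both O2 levels averaged, beside 3.78% of all genes called, with a median log2 difference of -0.24 that became -0.03 with the offsets. *Mrtfa*, the actin-sensing coactivator of SRF, stood at 60.2, 50.5 and 60.1 CPM in Ctrl and 37.2, 19.9 and 28.8 CPM in cKO in 20% O2. In 1% O2 it was 32.6, 42.6 and 36.3 CPM against 19.4, 17.0 and 18.7 CPM. The genotypes did not overlap at either O2 level, and the averaged difference was -1.01 ± 0.14 (adjusted p = 0.0045), or -0.70 with the offsets. *Ldb3*, a Z-disc protein, differed by -1.18 ± 0.19 (adjusted p = 0.0090) and *Myl12b*, a regulatory light chain of myosin II, by 0.80 ± 0.15 (adjusted p = 0.015). In hypoxia, averaged over the 3 arms, where 10.5% of all genes were called, 2 of the 24 were called higher, *Ldb3* at 0.59 among them, and 3 lower, with *Lima1*, an actin bundler, at -0.67.

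Of 23 other YAP and TEAD genes, which include TEAD factors and cofactors as well as targets, 5 were called lower and 0 higher in cKO (2.68% of all genes called lower), with a median of -0.36, or 3 lower and a median of -0.18 with the offsets. *Dock5*, *Ptpn14* and *Myof* led, at -1.29, -0.93 and -0.96. In hypoxia 6 of the 23 were called lower (5.13% of all genes) and 0 higher, with a median of -0.16. With the offsets 3 were called lower and the median was -0.08. Of the 23, 17 lay below 0 in hypoxia and 6 above, *Ccn1* among the latter. *Ccn2* (connective tissue growth factor) stood at 2377, 1832 and 2802 CPM in Ctrl in 20% O2 and at 571, 1029 and 1585 CPM in 1% O2. In cKO it was 1599, 1917 and 1362 CPM against 807, 1134 and 1179 CPM, and in Ctrl+gesicles 2313, 1704 and 2039 CPM against 1361, 1383 and 1763 CPM. The O2 groups were apart in Ctrl and cKO and overlapped in Ctrl+gesicles, and the averaged change of -0.74 (adjusted p = 0.0043) had the same size with the offsets. *Ptpn14* changed by -0.93 and *Tead4* by -0.83.

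The other lists hold upstream and adhesion genes. Of 10 Hippo pathway genes edgeR called 0 in cKO and 0 in hypoxia, with 7 and 3 at an unadjusted p under 0.05 (28.5% and 37.4% of all genes), and DESeq2 called 1, *Lats1*, and 0. In edgeR's test *Stk3* had the smallest p in cKO, at 0.28 (adjusted p = 0.040), which is below 1.5-fold. It was the 1 gene of the 10 above 0 there, with 9 below. *Lats1* stood at -0.88 (adjusted p = 0.067) in cKO and *Mob1b* at -0.55 (adjusted p = 0.035) in hypoxia. Among other focal adhesion genes, *Tln2* was called lower in cKO at -1.12 (adjusted p = 0.026), and the kinase *Src* was called lower in hypoxia at -0.80 (adjusted p = 0.0024). Both were called with the offsets as well.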

How the data were processed

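RNA was measured by paired-end poly-A sequencing in 18 libraries, 3 in each of 6 groups assigned from the labels. The authors trimmed reads with cutadapt 4.8, aligned them to GRCm38 with STAR 2.7.8a and quantified genes with RSEM 1.3.3 (FastQC 0.11.8 and MultiQC 1.20 for quality), per the submitters' processing notes and the methods, and deposited estimated counts per gene as whole numbers. Whether counting used strand is not given in the sources used here. The 4 transgene rows were left out of the gene total.

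Counts were analysed in R 4.3.3 with edgeR 4.0.16 (TMM, filterByExpr, quasi-likelihood F test, Benjamini-Hochberg adjustment, two-sided), with 12 libraries (15850 genes) for Ctrl and cKO and 18 libraries (16174 genes) for comparisons with gesicles and for O2 averaged over arms, 11 comparisons in all. A gene was called at adjusted p under 0.05 and 1.5-fold. The standard error is the log2 fold change divided by the root of F. DESeq2 1.42.0 was an alternative. GC and length offsets were splines (df 4) over the 99.92% of tested genes with annotation. The fit was tested on simulated data.

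The methods state a paired DESeq2 design without naming the pairing factor. The main tests used no pairing, and the library number served as a block only in alternative fits. Same-numbered Ctrl libraries varied together across O2 (correlation of deviations 0.281 to 0.707). Same-numbered Ctrl and Ctrl+gesicles libraries did so in 20% O2 (0.373 to 0.641). In 1% O2 this was less clear (0.133 to 0.368), since pairs of unlike number reached 0.274 there. The numbers in these arms may therefore mark pairs. In the other comparisons at least 1 pair was at or below 0.1. By *Xist* and *Ddx3y*, same-numbered Ctrl and cKO libraries were of opposite sex, so the block in cKO against Ctrl joined male with female libraries.

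All 37 genes could be named. Full statistics were given for those called, or for the 3 with the smallest p, and for up to 3 genes per pathway list. *Ccn2* was shown per library after its values were seen. The members and lists were chosen with earlier results of these data known. Some results of the pathway lists are not reported here.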

Additional observations from a re-analysis of the deposited data

How the results depend on the processing

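No gene that was called in a comparison, or among its 3 with the smallest p, changed direction there under any alternative. Other members did with the offsets, and the members below 0 went from 26 to 21 in cKO against Ctrl averaged and from 16 to 7 in the interaction. The number of the 37 genes called moved as follows, with the share of all genes called in brackets. With the replicate block it was 1 for O2 in Ctrl (2.32%), 0 for O2 in cKO (2.8%) and 0 for O2 in Ctrl+gesicles (2.92%). It was 3 for O2 averaged over the 3 arms (10.4%) and 1 for cKO against Ctrl averaged (2.26%). In the cKO comparisons and in O2 in Ctrl+gesicles, not every same-numbered pair correlated over 0.1. Within an arm, same-numbered libraries were of one sex by *Xist* and *Ddx3y*. DESeq2 called 5 for O2 in cKO (3.12%). In cKO against Ctrl it called 3 in 20% O2 (1.51%), 1 in 1% O2 (1.01%) and 8 averaged (4.38%). DESeq2 with the block called 5 for O2 in Ctrl (3.28%), 5 in cKO (3.61%), 2 in Ctrl+gesicles (3.19%) and 3 over the arms (6.72%). In cKO against Ctrl that fit called 1 in 1% O2 (0.971%) and 7 averaged (4.36%). Without the filter on low counts 3 were called in cKO against Ctrl in 20% O2 (0.985%) and 8 averaged (4.17%). Without the fold minimum 2 were called for O2 in cKO (2.39%), 2 in Ctrl+gesicles (2.92%) and 15 over the arms (24.6%). In cKO against Ctrl averaged 4 were called (5.19%). The averaged cKO count was also 4 with the offsets (3.27%) and 4 in the fit of all 18 libraries (3.89%). It was 0 with libraries of one number summed (0.151%), an alternative chosen after seeing the data. O2 in Ctrl+gesicles gave 0 in a fit of the groups compared (0.796%). The mean *Zyx* level in Ctrl in 1% O2 was 662 CPM with RLE size factors.

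Leaving out single libraries gave 0 to 1 called genes for O2 in Ctrl (0.751% to 1.65% of all genes). For O2 it gave 0 to 9 in cKO (0.631% to 8.8%) and 0 to 1 in Ctrl+gesicles (0.946% to 2.24%). Over the arms the count was 3 to 7 (9.07% to 12.6%). For cKO against Ctrl it was 0 to 2 in 20% O2 (0.00631% to 1.0%) and 0 to 0 in 1% O2 (0.0% to 0.0379%). Averaged over both O2 levels, it was 1 to 8 for cKO against Ctrl (0.915% to 9.74%). The interaction and the gesicle comparisons stayed at 0, with at most 0.402% of all genes called. *Fmnl1* lost its call within cKO and within Ctrl+gesicles in 5 of 6 omissions each. With 3 libraries a group, small differences were not detectable, and *Fmnl1* rests on at most 80 counts a library.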
